A study of Mus musculus with 36 samples.

Results

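The response of Bmal1-KO macrophages to lipopolysaccharide (LPS) was examined in 12 of the 36 RNA-sequencing libraries of the series. These 12 libraries were chosen by their labels alone: 6 of bone marrow-derived macrophages (BMDMs) treated with 100 nM LPS in DMSO for 6 h and 6 of BMDMs treated with the DMSO vehicle for 6 h. The KO mice (LysM-Cre;Bmal1 flox/flox) carried floxed Bmal1 alleles and Cre driven from the LysM promoter of myeloid cells, on a C57BL/6 background, so that both the LPS and the vehicle group shared the targeted alleles, and deletion was limited to cells in which that promoter had driven Cre. The controls of the other genotype (WT) were flox/flox littermates without Cre, with 3 LPS and 3 vehicle libraries. All mice were females aged 13 to 17 weeks, and marrow cells were cultured with MCSF for 7 days. The other libraries of the series received the small molecule CCM and were not part of this comparison. The question was which genes change in macrophages of the Bmal1-KO genotype when they meet an inflammatory stimulus, and how alike the 6 replicates are in that change.

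LPS, a glycolipid of the outer membrane of Gram-negative bacteria, is handed by CD14 to the receptor complex of TLR4 and MD-2. From there a branch through MYD88 leads to NF-kB and to inflammatory cytokines, and a branch through TRIF (the product of Ticam1) leads to interferon beta, which acts back on the cell through its receptor to induce antiviral genes. BMAL1, the partner of CLOCK, drives the circadian clock, which in macrophages is tied to the strength of inflammatory responses.

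The targeted gene was examined first. Bmal1 is listed under its symbol Arntl, on mm10 chromosome 7 at 113207465 to 113314126 (+ strand). In the KO vehicle libraries, Arntl lay between 3.01 and 7.63 CPM (counts scaled to the size of the library), with a median of 7.51. In the KO LPS libraries it lay between 2.18 and 8.71 CPM, with a median of 7.01. The lowest value of each group came from replicate 6. LPS did not change Arntl detectably (log2 fold change -0.02 ± 0.30 SE, edgeR adjusted p = 0.971). When the 18 vehicle and LPS libraries of both genotypes were scaled together, KO vehicle libraries stood at 75.4% of the WT vehicle libraries (exact permutation test, two-sided p = 0.119, n = 6 and 3), and at 87.4% without replicate 6 (exact p = 0.179, n = 5 and 3). Counts over the whole gene include exons outside a deleted part, so these values neither establish nor exclude the deletion. Nr1d1, a clock gene that BMAL1 and CLOCK activate, stood at 60.1% of WT in vehicle (exact permutation p = 0.0476, and 0.143 adjusted over 3 genes). Without replicate 6 Nr1d1 stood at 64.6% (exact permutation p = 0.0714, and 0.214 adjusted). Dbp, a clock output gene, stood at 94.2% (exact permutation p = 0.524).

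Before the responses are described, 2 departures from uniform libraries need to be given. Replicate 6 stood apart in both groups, as the plot of the first principal components shows. Component 1 (65.7% of the variance) separated LPS from vehicle, and component 2 (23.8%) separated replicate 6 from the others. Genes were put into 5 groups by length. The shortest group had a median deviation of 0.79 (vehicle) and 0.84 (LPS) on the log2 scale in replicate 6 against the other 5 replicates, whereas the longest group had one of -0.80 and -0.67. Vehicle replicate 4 showed the same tilt at a lower size (0.11 and -0.17). In every other library both medians stayed within 0.1 of 0. The deviations of replicate 6 were shared by its vehicle and LPS libraries, and the median log2 fold change under LPS varied little between the 5 length groups (-0.03 to -0.07). The cause of this length pattern was not tested. The labels do not say whether replicates were separate mice or cultures. The authors give n = 6 (KO) and n = 3 (WT) for female mice, but the labels do not link libraries to mice. The p-values therefore measure only the spread between these libraries. Totals were 13469262 to 26891002 read pairs on genes in the vehicle libraries and 15670327 to 20518836 in the LPS libraries.

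**Figure D1:**
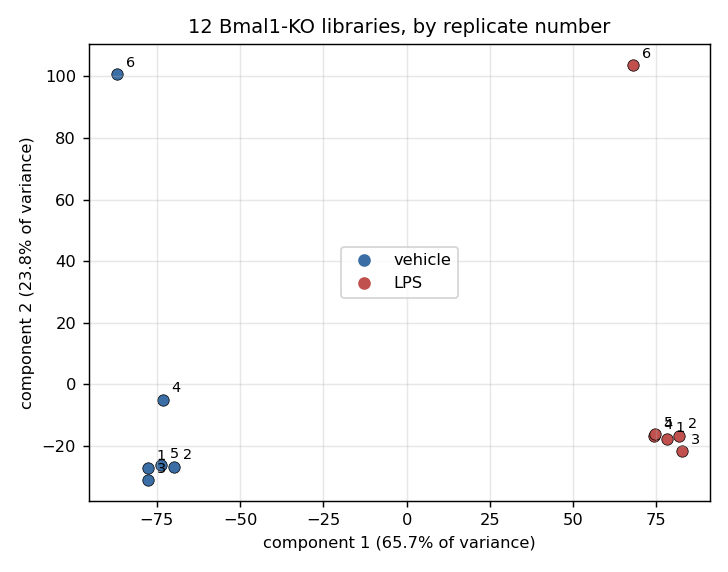
Principal components of log2 CPM over the 13648 genes tested, with the 6 vehicle and 6 LPS libraries of Bmal1-KO BMDMs numbered by replicate. The axes are component 1 (65.7% of the variance) and component 2 (23.8%); replicate 6 lies at 100.7 (vehicle) and 103.8 (LPS) on component 2, while the other 10 libraries lie between -31.0 and -4.9.

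Vehicle replicate 2, in turn, held more transcripts of LPS-raised genes than the other vehicle libraries. Over 219 genes raised by at least 5 on the log2 scale in the WT comparison, which shares no library with the KO comparison, its summed level was 1168 CPM, against 695 to 876 CPM in the other 5 vehicle libraries. It was the highest vehicle library for 89 of these 219 genes. The reason was not tested. Among the 96 named genes, leaving out this library moved the fitted fold by over 1.5 times for Cxcl9, Nos2, Il1b, Ccl5, Acod1, Il12b, Serpina3f, Gbp5, Ifi205, Il6 and Cxcl10, and their values without it are given where they are described.

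LPS changed the expression of a large part of the transcriptome. Of 13648 genes tested, 3060 rose (22.4%) and 3373 fell (24.7%), which is 47.1% in either direction (edgeR quasi-likelihood test, Benjamini-Hochberg adjusted p of at most 0.05). Of these, 1643 rose and 1859 fell by at least 1 on the log2 scale. At larger sizes the response was uneven: 472 genes rose by at least 3 and 176 by at least 5, against 137 and 11 that fell as far. The direction was the same in all 6 same-numbered pairs for 2980 of the 3060 raised genes and for 3208 of the 3373 lowered genes. In bulk RNA, a fall can come from fewer cells of a type or from less RNA per cell, and these cannot be told apart here.

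The number of calls depended on how the spread of replicate 6 was handled. When replicate number entered as a block, 4656 genes rose (34.1%) and 5118 fell (37.5%). Without replicate 6, 4509 of 13844 genes rose (32.6%) and 5103 fell (36.9%). The 6433 genes called without a block were nearly all called again in the same direction, 6430 with the block and 6402 without replicate 6. The biological coefficient of variation was 0.304 with all replicates and 0.122 without replicate 6. The split between raised and lowered genes also depended on scaling: 47.6% of the calls were rises with TMM scaling, 34.9% with upper-quartile scaling and 24.2% with total counts alone. Relative to TMM (median log2 fold change of all genes -0.05), the median of all genes shifted to -0.24 with upper-quartile scaling and to -0.44 with total counts alone, and the directions below are relative to TMM.

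The strongly raised genes took up a visible share of the sequenced RNA. The 176 genes raised by at least 5 on the log2 scale held 0.0637 to 0.129% of the read pairs in the vehicle libraries and 7.25 to 7.98% in the LPS libraries. On the scale of CPM per kilobase of gene length, Ccl5, a chemokine for T cells and monocytes, moved from a median of 4.46 in vehicle to 4045 with LPS, where it ranked 5 among all genes tested. Acod1, which makes the antimicrobial metabolite itaconate, moved from 1.70 to 2333 CPM per kilobase. Il1b moved from 2.16 to 1811 CPM per kilobase. Genes with the highest per-length levels in vehicle kept high levels: Fth1, the heavy chain of ferritin, went from 13830 to 26670 and Apoe, an apolipoprotein made by macrophages, from 9586 to 7320 CPM per kilobase. A set of 24 genes lay under 1 CPM in every vehicle library and at or above 10 CPM in every LPS library. Among them were Rasgrp1, Cxcl9, Tnfsf10, Il12a, Csf3 and Mir155hg, the host transcript of a miRNA (named after their values were seen).

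**Figure D2:**
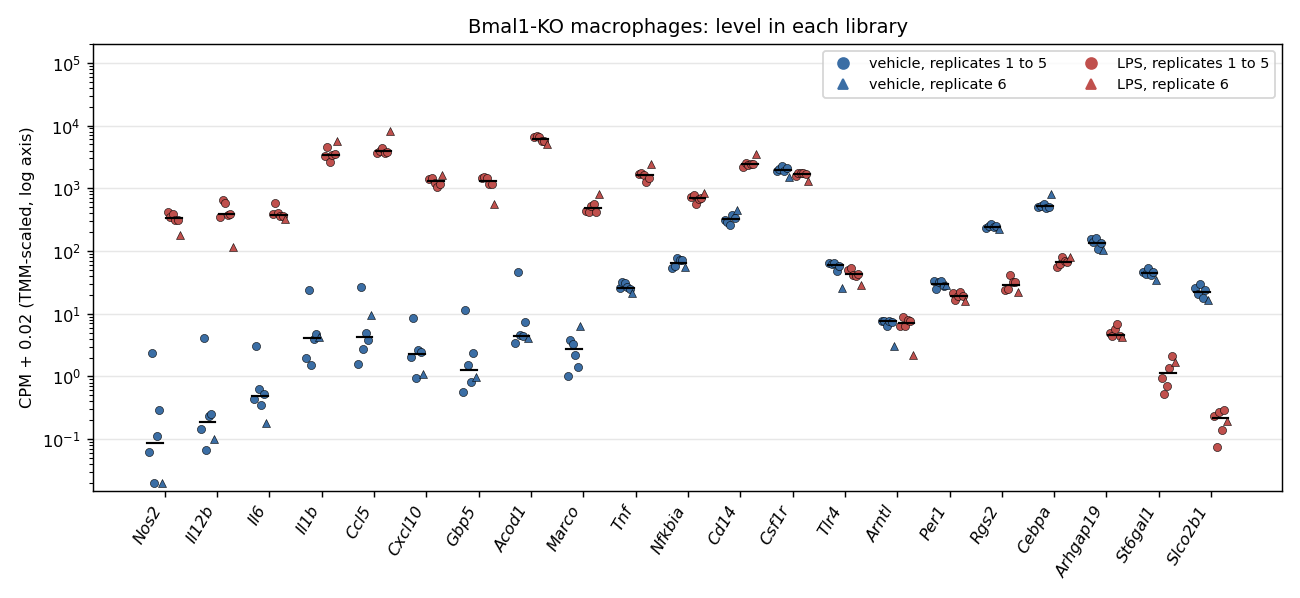
Level of 21 genes in each of the 12 Bmal1-KO libraries, as TMM-scaled CPM plus 0.02 on a log axis, for vehicle (blue) and LPS (red), with replicate 6 drawn as triangles and the group median as a bar. Inducible genes such as Nos2 and Il1b separate by more than 2 orders of magnitude, vehicle replicate 2 is the highest blue point for Nos2, Il12b, Il6, Il1b, Ccl5, Cxcl10, Gbp5 and Acod1, and the groups overlap for Arntl, Csf1r and Tlr4.

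The receptor side of the pathway changed less than its products. Of 16 genes for the LPS receptor and its adaptors, 10 rose and 2 fell, beside 22.4% raised and 24.7% lowered over all genes. The median log2 fold change was 0.75, beside -0.05 over all genes tested. Cd14, the co-receptor that hands LPS to TLR4, lay between 259 and 459 CPM in vehicle (median 321) and between 2185 and 3545 CPM with LPS (median 2433). The groups did not overlap, and Cd14 rose 7.60-fold (log2 fold change 2.93 ± 0.17, edgeR adjusted p = 1.36e-08). Irak3, which encodes an inhibitory kinase-like protein of the same pathway, rose from a median of 19.7 to 267 CPM (log2 3.80 ± 0.17, edgeR adjusted p = 8.78e-10). The adaptor Myd88 rose from a median of 53.9 to 246 CPM (log2 2.21 ± 0.15, edgeR adjusted p = 5.05e-08). Tlr4 itself went the other way in most pairs, being lower in 5 of 6. It lay between 25.7 and 64.3 CPM in vehicle and between 28.5 and 53.0 CPM with LPS, so the groups overlapped. Its log2 fold change was -0.32 ± 0.21 (edgeR adjusted p = 0.255), and it was called lowered with the replicate block (adjusted p = 0.00353) and without replicate 6 (adjusted p = 0.00417). The kinases Irak1 (-0.51 ± 0.19) and Irak4 (-0.23 ± 0.08) were called lowered on the log2 scale with adjusted p of 0.0437 and 0.0318 in edgeR, and neither was called with RLE scaling. Both were lower in 6 of 6 pairs. They were called lowered with the replicate block (edgeR adjusted p = 4.32e-06 and 0.00191) and without replicate 6 (adjusted p = 1.35e-06 and 0.00262). With the replicate block 11 of the 16 genes rose and 4 fell, beside 34.1% and 37.5% over all genes. Irak3 overlaps Tmbim4, so its reads may be shared, and Myd88 was named after its values were seen.

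NF-kB genes, many of which are themselves NF-kB targets, moved together. Of 18 subunits and inhibitors, 16 rose and 0 fell, with a median log2 fold change of 2.61, beside 22.4% raised and 24.7% lowered over all genes. Nfkbia, which encodes the inhibitor that holds NF-kB in the cytoplasm, lay between 53.6 and 78.5 CPM in vehicle (median 64.3) and between 566 and 853 CPM with LPS (median 706). It rose 11.0-fold (log2 3.46 ± 0.14, edgeR adjusted p = 5.39e-10). Nfkb2, a precursor subunit, rose from a median of 47.4 to 765 CPM (log2 3.97 ± 0.17). Nfkbiz, an atypical nuclear cofactor, rose from 17.4 to 264 CPM (log2 3.95 ± 0.33). Both were called in edgeR, with adjusted p of 8.36e-10 and 3.74e-07. The members that were not called were Nfkbid (log2 0.24 ± 0.21) and Chuk (0.35 ± 0.23), and both were called raised with the replicate block (adjusted p = 0.00348 and 0.00143).

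Cytokines were among the genes with the largest changes. Of 23 cytokine genes, 22 were tested, 20 rose and 0 fell, beside 22.4% raised and 24.7% lowered over all genes. The median log2 fold change of the list was 5.72. Tnf, an early cytokine, lay between 21.7 and 32.2 CPM in vehicle (median 26.0) and between 1259 and 2453 CPM with LPS (median 1657). Its groups were far apart, and it rose 63.1-fold (log2 5.98 ± 0.20, edgeR adjusted p = 8.3e-11). Il1b, which encodes the precursor of the fever-inducing interleukin 1 beta, lay between 1.53 and 23.6 CPM in vehicle (median 4.13) and between 2589 and 5690 CPM with LPS (median 3454). The highest vehicle value belonged to replicate 2. The log2 fold change of Il1b was 9.16 ± 0.79 (edgeR adjusted p = 5.45e-07), and 10.18 without vehicle replicate 2. Its interval overlaps that of the antisense gene Il1bos, and as no source used here gives the strand setting, reads of the 2 cannot be told apart.

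The other cytokines with a fixed place in this comparison also rose. Il6, which drives the acute-phase response, lay between 0.163 and 3.03 CPM in vehicle (median 0.459) and between 329 and 587 CPM with LPS (median 378). The highest vehicle value came from replicate 2. The log2 fold change of Il6 was 8.88 ± 0.62 (edgeR adjusted p = 7.39e-08), and 9.90 without vehicle replicate 2. Il12b, the shared subunit of interleukins 12 and 23, had a vehicle median of 0.17 CPM with 4.04 CPM in replicate 2, and an LPS median of 383 CPM with 118 CPM in replicate 6. Its log2 fold change was 8.97 ± 1.01 (edgeR adjusted p = 6.87e-06) and 11.36 without vehicle replicate 2. The anti-inflammatory cytokine Il10 rose less, from a median of 2.55 to 24.8 CPM (log2 3.22 ± 0.18, edgeR adjusted p = 8.82e-09). Ifnb1, the interferon beta of the TRIF branch, was at 0 in 5 of 6 vehicle libraries and lay between 0.970 and 3.50 CPM in every LPS library. Its fitted log2 fold change was 6.00 ± 0.67 (edgeR adjusted p = 6.34e-06). Osm (-0.48 ± 0.19) and Tgfb1 (0.24 ± 0.29) were the tested cytokines that were not called. With the replicate block both were called, Osm as lowered (adjusted p = 0.00149) and Tgfb1 as raised (adjusted p = 0.00022), which made 21 raised and 1 lowered.

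Chemokines, which recruit leukocytes, showed a similar pattern. Of 19 chemokine genes, 18 were tested, 16 rose and 1 fell, beside 22.4% raised and 24.7% lowered over all genes. The median log2 fold change of the list was 5.83. Cxcl9, a ligand of CXCR3, was at or under 0.570 CPM in every vehicle library and lay between 83.9 and 149.6 CPM with LPS (log2 9.59 ± 0.58, edgeR adjusted p = 1.88e-08). Without vehicle replicate 2, its highest vehicle library, the log2 fold change of Cxcl9 was 11.05. Cxcl10, another CXCR3 ligand, rose from a median of 2.25 to 1300.0 CPM (log2 8.79 ± 0.58, edgeR adjusted p = 3.86e-08), and its log2 fold change was 9.45 without vehicle replicate 2. Cxcl11, named for the third ligand of this receptor, is annotated as a polymorphic pseudogene, so whether these cells make its protein is uncertain. It had 0 counts in all 6 vehicle libraries and 1163 counts over the 6 LPS libraries. Against a floor of 3 counts over the vehicle group, Cxcl11 was at least 404-fold higher with LPS. Cxcl10 and Cxcl11 lie inside the interval of Art3, so their reads may be shared with it. Cxcl14 was the member that fell, from a median of 76.2 to 28.7 CPM (log2 -1.33 ± 0.21, edgeR adjusted p = 0.000167).

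The interferon-induced antiviral genes were the list with the highest median. All 36 were tested and all 36 rose, beside 22.4% raised over all genes. The median log2 fold change was 6.33, with the same direction in all 6 pairs for each of the 36. Gbp5, a guanylate-binding protein that acts on intracellular pathogens, lay between 0.543 and 11.5 CPM in vehicle (median 1.23) and between 572 and 1535 CPM with LPS (median 1316). Its log2 fold change was 8.70 ± 0.85 (edgeR adjusted p = 1.77e-06), and 9.97 without vehicle replicate 2. The lowest LPS value belonged to replicate 6 and the highest vehicle value to replicate 2. Ifi205, of the DNA-sensing PYHIN family, rose from a median of 1.08 to 614 CPM (log2 8.58 ± 0.54, edgeR adjusted p = 2.64e-08), with a log2 fold change of 9.24 without vehicle replicate 2. Isg15, a ubiquitin-like protein, rose from 9.11 to 1405 CPM (log2 7.59 ± 0.46), and the interferon regulatory factor Irf7 from 17.4 to 1273 CPM (log2 6.24 ± 0.32). Both were called in edgeR, with adjusted p of 1.73e-08 and 3.34e-09. Isg15 and Irf7 were named after their values were seen.

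Raised genes also lay side by side in the genome. Runs of 5 or more neighbouring tested genes that each rose by at least 2 on the log2 scale were listed after the values were seen. On mm10, 6 genes of the Ifit family at chr19:34550694-34650009 rose by 3.81 to 7.64 on the log2 scale. A run of 5 Gbp genes at chr3:142493978-142638008 rose by 6.34 to 8.70. A run of 8 genes of the Ifi200 region at chr1:173747293-174044411 rose by 3.46 to 8.58, and 5 Slfn and neighbouring genes at chr11:83065112-83215154 rose by 2.41 to 7.74. Members of such families are similar in sequence, and reads that fit several of them can be assigned to the wrong one or left uncounted, so their single values are uncertain.

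The letters of motifs bound by interferon-activated factors, NF-kB and the clock were searched in RefSeq promoters (GRCm38.p6, 250 bases before to 50 bases after each start site). The interferon-stimulated response element (ISRE) was searched as TTTC, then any 2 bases, then TTTC, the NF-kB motif as GGG, then any 2 bases, then TTTCC, and the E-box of BMAL1 and CLOCK as CACGTG, each on both strands, and matches of different motifs could overlap. Of the genes tested, 9946 had at least 1 promoter in this table. ISRE letters were found in 3.44% of all 32851 promoters, in 2.58% of those of genes not called, in 2.38% of those of lowered genes and in 5.85% of those of raised genes. The share was higher for larger rises, at 18.3% of 405 promoters (log2 of at least 3) and 23.8% of 143 promoters (log2 of at least 5). In the antiviral list, 19 of 34 promoters held them (55.9%). NF-kB letters were found in 1.63% of all promoters, in 2.86% for raised genes and in 7.69% for rises of at least 5. They were found in 7 of 22 promoters of the NF-kB list (31.8%) and in 4 of 12 of the chemokine list (33.3%). E-box letters were found in 7.15% of all promoters, in 9.63% for raised genes and in 9.90% for genes not called. Their share was lower for larger rises, at 6.42% (log2 of at least 3) and 2.80% (log2 of at least 5). In the core clock list 6 of 20 promoters held them (30.0%). This was not particular to clock genes, as 7 of 22 promoters of the lysosome list held them (31.8%). The share was 23.5% in both the cholesterol synthesis and the feedback regulator lists. These shares are descriptions over promoters, several of which can belong to 1 gene, and a match of letters is not a bound site. Each motif was searched in 1 form only, so a promoter without a match may still hold other forms of it.

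**Figure D3:**
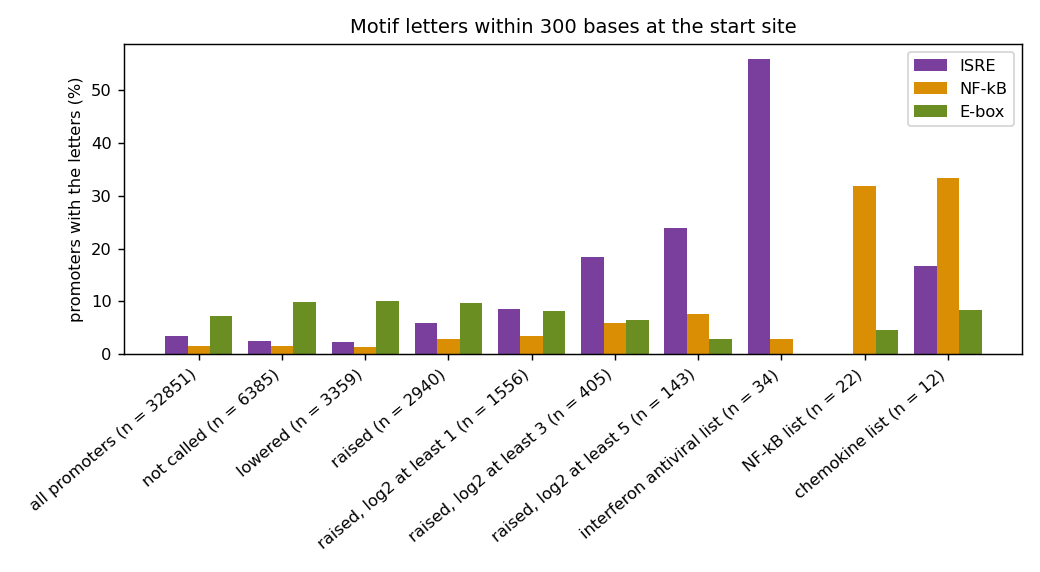
Share of promoters (%, 300 bases each) that hold the ISRE, NF-kB or E-box letters on either strand, by class of LPS response in Bmal1-KO BMDMs and for 3 gene lists, with the number of promoters under each bar group. ISRE letters go from 2.58% of promoters of genes not called to 23.8% for genes raised by at least 5 on the log2 scale, and NF-kB letters from 1.53% to 7.69%.

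Upstream sequences of 5 raised genes are shown to make these matches visible. In the forms searched, they stand for an interferon gene with both motifs, 2 interferon genes with ISRE letters and 2 genes with NF-kB letters. Stretches close to a motif but outside the searched form are not marked, such as gggaaattcc in Cxcl10. Each is the 250 bases before the RefSeq start site, 5′ to 3′ in the direction of the gene, on GRCm38.p6, with ISRE or NF-kB letters (either strand) in capitals. In Gbp5 (chr3:142496684-142496933, + strand) ISRE letters begin 165 bases and NF-kB letters 77 bases before the start. In Cxcl10 (chr5:92348890-92349139, - strand) ISRE letters begin 213 bases before the start, and in Ifi205 (chr1:174031756-174032005, - strand) 134 bases before it. In Il6 (chr5:30012864-30013113, + strand) NF-kB letters begin 44 bases before the start, and in Nfkbia (chr12:55492648-55492897, - strand) 29 bases before it.
Gbp5: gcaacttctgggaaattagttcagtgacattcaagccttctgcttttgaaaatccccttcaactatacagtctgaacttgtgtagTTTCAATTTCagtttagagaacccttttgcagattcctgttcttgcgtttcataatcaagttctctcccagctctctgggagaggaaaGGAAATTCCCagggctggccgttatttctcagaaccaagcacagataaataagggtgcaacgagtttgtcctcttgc
Cxcl10: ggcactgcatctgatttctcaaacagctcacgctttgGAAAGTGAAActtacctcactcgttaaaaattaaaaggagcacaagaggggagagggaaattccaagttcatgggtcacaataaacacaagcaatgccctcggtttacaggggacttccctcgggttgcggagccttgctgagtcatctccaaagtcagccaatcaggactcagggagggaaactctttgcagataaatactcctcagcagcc
Ifi205: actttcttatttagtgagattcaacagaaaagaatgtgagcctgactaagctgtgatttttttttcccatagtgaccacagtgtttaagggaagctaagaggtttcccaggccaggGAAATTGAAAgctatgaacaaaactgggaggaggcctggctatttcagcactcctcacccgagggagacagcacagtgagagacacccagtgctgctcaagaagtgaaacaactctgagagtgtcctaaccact
Il6: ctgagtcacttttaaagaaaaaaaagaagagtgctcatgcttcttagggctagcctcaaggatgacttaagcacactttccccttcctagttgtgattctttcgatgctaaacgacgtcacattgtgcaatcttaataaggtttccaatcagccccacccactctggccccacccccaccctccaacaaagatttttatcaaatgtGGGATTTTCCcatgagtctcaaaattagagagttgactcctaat
Nfkbia: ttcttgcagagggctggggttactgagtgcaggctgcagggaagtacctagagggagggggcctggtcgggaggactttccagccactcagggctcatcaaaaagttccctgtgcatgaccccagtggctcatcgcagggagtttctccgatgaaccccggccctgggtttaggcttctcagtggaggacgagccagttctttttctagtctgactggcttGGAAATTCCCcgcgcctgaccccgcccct
The letters were also present upstream of genes that fell: Suclg2 and Cxcl14 each had 1 ISRE match in this stretch, with log2 fold changes of -1.44 and -1.33.

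Effector enzymes changed in both directions. Of 19 genes, 15 rose and 3 fell, with a median log2 fold change of 4.29, beside 22.4% raised and 24.7% lowered over all genes. Nos2, which makes nitric oxide, lay between 0 and 2.32 CPM in vehicle (median 0.0667) and between 179 and 423 CPM with LPS (median 334). It was at 0 in 2 vehicle libraries, its highest vehicle value came from replicate 2 and its lowest LPS value from replicate 6. The log2 fold change of Nos2 was 9.43 ± 0.90 (edgeR adjusted p = 1.43e-06) and 11.75 without vehicle replicate 2. Acod1 rose from a median of 4.46 to 6119 CPM, with 46.8 CPM in vehicle replicate 2 (log2 9.01 ± 0.85, edgeR adjusted p = 1.29e-06, and log2 10.31 without that library). Arg1, an arginase that marks alternative activation, did not differ detectably (median 1.16 CPM in vehicle and 1.40 CPM with LPS, log2 0.04 ± 0.30, edgeR adjusted p = 0.937). Ptgs1, the constitutive cyclooxygenase, fell from 63.4 to 15.3 CPM (log2 -2.01 ± 0.13, edgeR adjusted p = 3.11e-08), and the lipoxygenase Alox5 fell from 7.92 to 3.60 CPM (log2 -1.18 ± 0.22, adjusted p = 0.000514).

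At 6 h the early transcription factors were split. Of 23 genes, 8 rose and 9 fell, with a median of -0.04, beside 22.4% raised and 24.7% lowered over all genes. Batf, an AP-1 family member, rose from a median of 3.96 to 69.99 CPM (log2 4.04 ± 0.41, edgeR adjusted p = 2.95e-06). The immediate early gene Fos lay between 136.5 and 224 CPM in vehicle and between 32.5 and 68.7 CPM with LPS (log2 -1.79 ± 0.18, edgeR adjusted p = 2.13e-06), and Jun fell likewise (log2 -1.56 ± 0.17, adjusted p = 4.22e-06). Cebpa, a myeloid lineage factor, fell from a median of 519 to 67.1 CPM (log2 -3.05 ± 0.16, edgeR adjusted p = 4.27e-09). Fos and Jun were named after their values were seen. Of 16 feedback regulators, 6 rose and 5 fell, beside the same 22.4% raised and 24.7% lowered over all genes. Their median was 0.01, which turned negative with upper-quartile scaling (-0.19) and total counts alone (-0.39). Socs3, an inhibitor of cytokine receptor signaling, rose from 9.29 to 514 CPM (log2 5.58 ± 0.26, edgeR adjusted p = 1.55e-09), whereas Rgs2, a regulator of G protein signaling, fell from 242 to 28.5 CPM (log2 -3.06 ± 0.15, adjusted p = 3.32e-09).

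**Figure D4:**
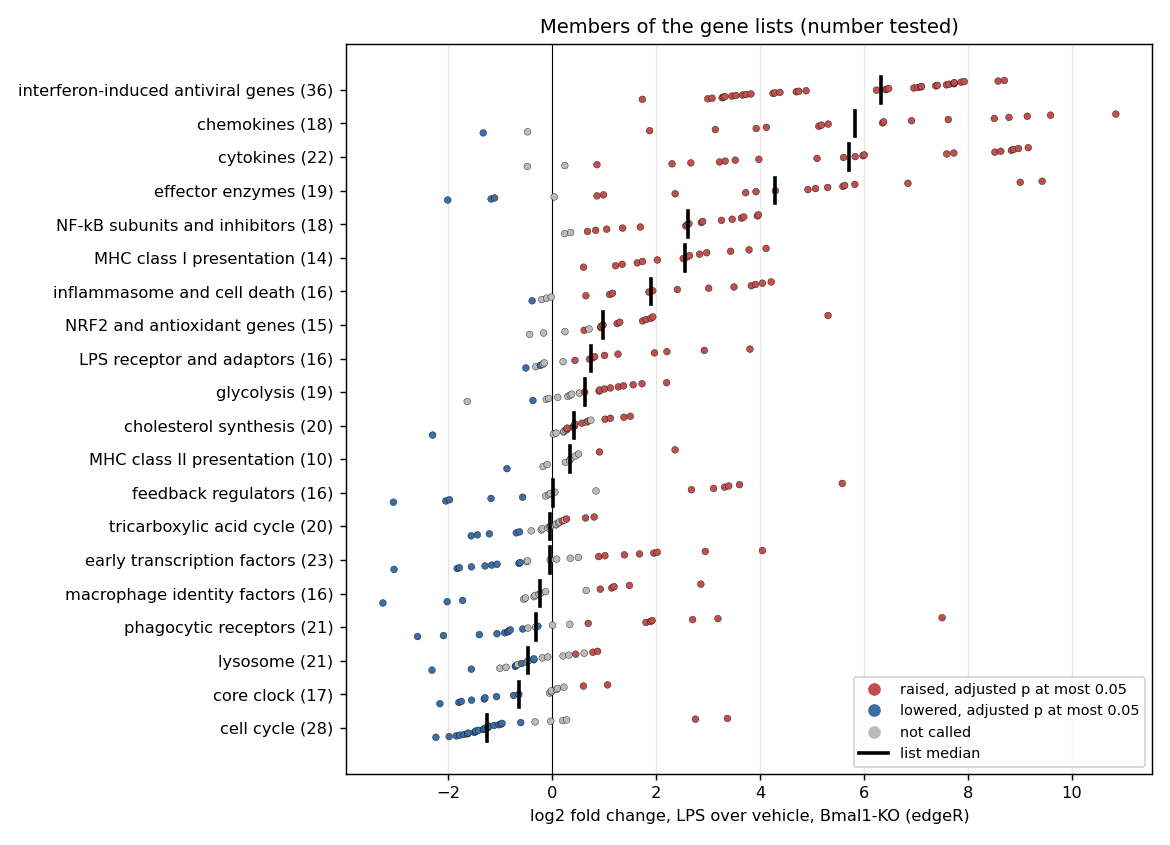
Log2 fold change (LPS over vehicle, Bmal1-KO, edgeR) of each tested member of the 20 gene lists, ordered by list median (black bar), with raised members in red, lowered members in blue and members not called in gray. The antiviral list lies wholly above 0 with a median of 6.33, while the cell cycle list has a median of -1.26 with 22 of 28 members lowered.

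Genes of antigen presentation differed by class. All 14 genes of MHC class I presentation rose, with a median log2 fold change of 2.55, beside 22.4% raised over all genes. Tap1, a subunit of the peptide transporter, rose from a median of 40.8 to 731 CPM (log2 4.12 ± 0.15, edgeR adjusted p = 2.06e-10). Its interval overlaps that of Psmb9. B2m, the light chain of class I molecules, lay between 1177 and 1467 CPM in vehicle and between 3172 and 3791 CPM with LPS (log2 1.34 ± 0.10, edgeR adjusted p = 9.37e-08, named after its values were seen). For MHC class II, 2 of 10 genes rose and 1 fell, beside 22.4% raised and 24.7% lowered over all genes. The class II median was 0.35, and -0.03 with total counts alone. H2-Ab1, a class II chain, had overlapping groups (102 to 346 CPM in vehicle and 220 to 588 CPM with LPS) and was higher in 6 of 6 pairs (log2 0.91 ± 0.32, edgeR adjusted p = 0.0316). With the replicate block 7 of the 10 class II genes rose and 2 fell, beside 34.1% and 37.5% over all genes. Without replicate 6 the class II counts were 5 and 2, beside 32.6% and 36.9%.

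Phagocytic receptors showed opposite changes. Of 21 genes, 7 rose and 10 fell, with a median of -0.32, beside 22.4% raised and 24.7% lowered over all genes. Marco, a scavenger receptor for bacteria, rose from a median of 2.73 to 480 CPM (log2 7.50 ± 0.46, edgeR adjusted p = 2.15e-08). The inhibitory Fc receptor Fcgr2b rose from 131.5 to 1222 CPM (log2 3.19 ± 0.13, edgeR adjusted p = 3.56e-10). Gas6, the bridging ligand for apoptotic cells, fell from 182 to 32.0 CPM (log2 -2.59 ± 0.12, adjusted p = 1.24e-09), and the hemoglobin scavenger receptor Cd163 fell from 3.04 to 0.711 CPM (log2 -2.09 ± 0.33, adjusted p = 0.000161). Among 21 lysosomal genes 3 rose and 7 fell, with a median of -0.46, beside 22.4% raised and 24.7% lowered over all genes. With the replicate block 6 rose and 14 fell, beside 34.1% and 37.5% over all genes. With total counts alone 0 rose and 14 fell, in a fit where 1825 of all 13648 genes rose and 5708 fell. Atp6v0d2, a subunit of the proton pump, fell from 373.5 to 78.5 CPM (log2 -2.32 ± 0.13, edgeR adjusted p = 1.2e-08). Tfeb, a transcription factor of lysosomal genes, fell from 66.6 to 25.3 CPM (log2 -1.56 ± 0.27, adjusted p = 0.000332), and its level in replicate 6 was the highest of both groups.

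Macrophage identity genes changed in both directions. Of 16 genes, 5 rose and 3 fell, with a median of -0.24, and with the replicate block 6 rose and 10 fell. The counts without the block lie near the shares over all genes (22.4% raised and 24.7% lowered). With the block those shares were 34.1% and 37.5%. Csf1r, the receptor for MCSF, lay between 1538 and 2232 CPM in vehicle and between 1329 and 1748 CPM with LPS, and was lower in 6 of 6 pairs. Its log2 fold change was -0.26 ± 0.12 (edgeR adjusted p = 0.0852), and it was called lowered with the replicate block (adjusted p = 0.000425) and without replicate 6 (adjusted p = 0.00173). Adgre1, which encodes the surface marker F4/80, rose from a median of 772 to 2154 CPM (log2 1.49 ± 0.24, edgeR adjusted p = 0.00019). Tfec, a factor related to MITF, rose from 15.4 to 109 CPM (log2 2.86 ± 0.09, adjusted p = 5.66e-11). The chemokine receptor Ccr2 fell from 23.1 to 2.66 CPM (log2 -3.26 ± 0.26, adjusted p = 2.98e-07).

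The libraries held macrophage markers at high levels and some markers of other cells. All 7 macrophage markers were tested, of which 2 rose and 1 fell, beside 22.4% raised and 24.7% lowered over all genes. Their summed level was 4419 to 4973 CPM in vehicle and 5560 to 6057 CPM with LPS. The 8 neutrophil markers summed to 568 to 1170 CPM in vehicle and 410 to 1225 CPM with LPS, of which Elane, Mpo and Ltf fell, Camp rose, S100a8, S100a9 and Ngp were not called, and Ly6g, which defines mature neutrophils, stayed at or under 0.462 CPM. The 6 fibroblast markers, mostly Col1a1 and Col1a2, summed to 503 to 1352 CPM in vehicle and 459 to 1625 CPM with LPS, and 0 of the 5 tested were called. The B cell markers Ms4a1 and Pax5 stayed at or under 0.821 CPM and the T cell markers Cd3d, Cd3e, Cd3g and Cd8a at or under 2.01 CPM, although Ighm, which was not called, reached 194 CPM. Cd79b and Cd4 fell, from highest values of 7.73 and 32.1 CPM in vehicle, and Lck rose to at most 6.90 CPM. Erythroid markers summed to 9.76 CPM or less, dendritic cell markers summed to 2.59 to 5.04 CPM in vehicle and 8.38 to 14.1 CPM with LPS (Ccr7 and Xcr1 rose), and mast cell or basophil markers summed to 20.4 to 37.4 CPM. The part of these cells in the changes was not tested.

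Metabolic genes changed by smaller amounts. Of 19 glycolysis genes, 10 rose and 1 fell, with a median of 0.62, beside 22.4% raised and 24.7% lowered over all genes. With the replicate block 14 rose and 3 fell, beside 34.1% and 37.5% over all genes. Total counts alone gave 9 raised and 4 lowered glycolysis genes (median 0.25), beside 1825 and 5708 of all 13648 genes. Pfkfb3, which makes an activator of glycolysis, rose from a median of 62.9 to 299 CPM (log2 2.20 ± 0.24, edgeR adjusted p = 4.7e-06), and Hif1a from 70.1 to 218 CPM (log2 1.73 ± 0.22, adjusted p = 1.83e-05). Gapdh, with many near-identical copies in the genome, was listed at only 7.03 to 101.6 CPM, and its value is uncertain. In the tricarboxylic acid cycle 4 of 20 genes rose and 5 fell, with a median of -0.04, and with the replicate block 6 rose and 8 fell. These shares are close to those over all genes in the same fits (22.4% and 24.7%, and 34.1% and 37.5% with the block). Idh1 fell from 235 to 76.7 CPM (log2 -1.56 ± 0.10, edgeR adjusted p = 3.32e-08) and Cs, citrate synthase, rose from 150.1 to 232 CPM (log2 0.64 ± 0.07, adjusted p = 7.09e-06). With total counts alone 0 of these 20 genes rose and 11 fell, in a fit where 1825 of all 13648 genes rose and 5708 fell.

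Of 20 cholesterol synthesis genes, 12 rose and 1 fell, with a median of 0.42, beside 22.4% raised and 24.7% lowered over all genes. The count depended on scaling, with 7 raised (median 0.24) under upper-quartile scaling and 5 raised (median 0.04) with total counts alone. Of all 13648 genes, 2360 and 1825 rose in those 2 fits. Hsd17b7, an enzyme of the later steps, lay between 4.64 and 18.4 CPM in vehicle (median 17.0) and between 17.3 and 45.8 CPM with LPS (median 42.2). The groups overlapped, and replicate 6 was the lowest in both. Its log2 fold change was 1.38 ± 0.30 (edgeR adjusted p = 0.00206). Dhcr7, the enzyme of the last step of the pathway, was the member that fell, from 50.8 to 10.3 CPM (log2 -2.30 ± 0.09, edgeR adjusted p = 3.75e-10). With the replicate block 17 of the 20 rose, beside 34.1% over all genes. Of 15 NRF2 and antioxidant genes, 11 rose and 0 fell, with a median of 0.98, beside 22.4% raised and 24.7% lowered over all genes. With the replicate block 13 rose and 2 fell, beside 34.1% and 37.5% over all genes. Without replicate 6 these counts were 13 and 1, beside 32.6% and 36.9%. Slc7a11, the cystine transporter, rose from 35.6 to 1411 CPM (log2 5.31 ± 0.22, edgeR adjusted p = 4.7e-10) and Sqstm1, an autophagy receptor, from 549 to 2110 CPM (log2 1.93 ± 0.14, adjusted p = 8.59e-08).

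Among 16 inflammasome and cell death genes, 12 rose and 1 fell, with a median of 1.90, beside 22.4% raised and 24.7% lowered over all genes. Nlrp3, the sensor of the inflammasome, lay between 12.5 and 41.7 CPM in vehicle (median 39.7) and between 260 and 797 CPM with LPS (median 704). Replicate 6 was the lowest in both groups, and the log2 fold change was 4.21 ± 0.34 (edgeR adjusted p = 2.73e-07). Casp4, which encodes the caspase that senses cytosolic LPS, rose from a median of 13.2 to 216 CPM (log2 4.04 ± 0.09, adjusted p = 1.7e-11). The adaptor Pycard was not called (log2 -0.20 ± 0.44, edgeR adjusted p = 0.753), with 95.4 to 99.5 CPM in replicate 6 at the top of both groups.

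Cell cycle genes fell most as a list. Of 28 genes, 22 fell and 2 rose, with a median log2 fold change of -1.26. Over all genes tested, 24.7% fell and 22.4% rose. Mcm7, a subunit of the replicative helicase, fell from a median of 48.3 to 11.7 CPM (log2 -2.24 ± 0.22, edgeR adjusted p = 1.74e-06). Its interval overlaps other genes, Ap4m1 and Cops6 among them. Ccnd1, the cyclin that growth factors induce, fell from 46.3 to 11.4 CPM (log2 -1.98 ± 0.26, adjusted p = 3.15e-05). The members that rose were Cdkn1a, the inhibitor p21, from 73.1 to 799 CPM (log2 3.37 ± 0.17, edgeR adjusted p = 3.08e-09), and Ccnd2, from 10.97 to 87.0 CPM (log2 2.76 ± 0.19, adjusted p = 8.44e-08). Mki67, a proliferation marker, stood against the list. It was higher in 6 of 6 pairs (median 110.6 CPM in vehicle and 138 CPM with LPS, log2 0.27 ± 0.12, edgeR adjusted p = 0.0756), and it was called raised with the replicate block (adjusted p = 0.000746) and without replicate 6 (adjusted p = 0.00199).

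Clock genes, whose activator was targeted in these cells, mostly fell under LPS. Of 20 core clock genes, 17 were tested, 2 rose and 9 fell, with a median of -0.64. Over all genes tested, 22.4% rose and 24.7% fell. Per1, a repressor of BMAL1 and CLOCK, had a median of 30.0 CPM in vehicle and at most 22.2 CPM with LPS, without overlap of the groups (log2 -0.64 ± 0.12, edgeR adjusted p = 0.000459). Dbp fell from a median of 4.97 to 1.01 CPM (log2 -2.16 ± 0.26, adjusted p = 1.31e-05). Bhlhe40, which competes for E-boxes, fell from 112 to 46.8 CPM (log2 -1.31 ± 0.14, adjusted p = 4.65e-06). These 3 genes were lower in all 6 pairs. Nr1d1 fell from 7.08 to 3.98 CPM (log2 -0.74 ± 0.25, edgeR adjusted p = 0.0243), but its groups overlapped and it lies across Thra, so its reads are uncertain. Per2 did not differ detectably (medians 5.71 and 5.72 CPM, log2 -0.02 ± 0.41, edgeR adjusted p = 0.978). Cry1 (log2 1.07 ± 0.34, adjusted p = 0.0196) and Cry2 (0.60 ± 0.20, adjusted p = 0.023) rose in edgeR, and neither was called with total counts alone.

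The strongest falls were found in genes outside these lists. Slco2b1, an organic anion transporter, lay between 16.7 and 29.6 CPM in vehicle (median 22.4) and between 0.0555 and 0.274 CPM with LPS (median 0.195). It fell by 6.89 on the log2 scale (SE 0.28, edgeR adjusted p = 4.28e-10). Zdhhc14, a protein palmitoyltransferase, fell from a median of 56.5 to 1.31 CPM (log2 -5.44 ± 0.17), and St6gal1, a sialyltransferase, from 43.97 to 1.12 CPM (log2 -5.19 ± 0.30). Both were called in edgeR, with adjusted p of 6.65e-11 and 1.24e-08. Arhgap19, a GTPase-activating protein, fell from 135 to 4.64 CPM (log2 -4.71 ± 0.17, edgeR adjusted p = 1.92e-10), and Cd28, known as a costimulatory receptor of T cells, from 53.7 to 1.86 CPM (log2 -4.63 ± 0.35, adjusted p = 1.63e-07). The other genes among the 10 largest falls were Abcg3, Klhl3, Zfp395, Clec1a and Nat8l, with log2 fold changes of -5.12 to -4.65. Slco2b1, St6gal1, Abcg3, Klhl3 and Zfp395 overlap other annotated genes.

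The 10 largest rises among protein-coding genes included 2 genes with no vehicle counts. Il1f6, a cytokine of the interleukin 1 family also called IL-36 alpha, had 0 counts in all 6 vehicle libraries and 643 over the LPS libraries, and was at least 223-fold higher against a floor of 3 counts over the vehicle group. Tmem132e, a membrane protein, had 0 and 487 counts and was at least 169-fold higher. The others were Cxcl9, Nos2, Il1b, Ccl5, Saa3, Acod1, Il12b and Serpina3f. Saa3, an acute-phase protein, rose from a median of 9.80 to 6696 CPM, with 21620 CPM in LPS replicate 6 (log2 9.04 ± 0.76, edgeR adjusted p = 4.36e-07). Ccl5 likewise had its highest LPS value in replicate 6, at 8233 CPM beside 3605 to 4440 CPM in the other 5 (log2 9.14 ± 0.80, edgeR adjusted p = 6.26e-07). Without vehicle replicate 2 the log2 fold change was 10.02 for Ccl5, and for Serpina3f it went from 8.90 to 9.96.

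The 6 replicates shared the response in direction and size. For each replicate, genes were called in a fit without it, and its own change was read on those genes. The change had the called direction in 99.1 to 99.6% of 5429 to 5527 genes for replicates 1 to 5 and in 91.8% of 9612 genes for replicate 6. The median ratio of a replicate's change to the fold change of the others ran from 0.918 (replicate 4) to 1.04 (replicate 3), and was 0.941 for replicate 6. The replicate that stood apart in level was thus close to the others in the size of its change. The antiviral list had median changes of 5.79 to 6.71 on the log2 scale in the 6 replicates, and the cell cycle list of -1.71 to -0.91.

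The same treatment of WT macrophages gave a similar picture. In the WT libraries, 4441 of 14501 genes rose (30.6%) and 4698 fell (32.4%). Of 6422 genes called in KO and tested in WT, 6415 had the same sign in WT and 6115 (95.2%) were called in the same direction, while 0 were called in the opposite direction. From the WT side, 6115 of 8802 called genes (69.5%) were called in KO, and 94.4% of 8903 when replicate 6 was left out of the KO fit. Across the 13612 genes tested in both, the log2 fold changes had a Pearson r of 0.98, a description over genes that are not independent.

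The difference between the genotypes was tested directly. With the interaction of genotype and LPS over 18 libraries, 0 of 15093 genes were called (0.0%) in edgeR, with 112 genes at an unadjusted p under 0.05 and a smallest adjusted p of 1.0. DESeq2 also called 0 genes, with 233 at an unadjusted p under 0.05. The 112 genes are a smaller share than the 0.05 that chance gives, so the edgeR fit was conservative. In simulated data it recovered 10.5% of 200 genes that differed by 1 on the log2 scale, and 68% with a difference of 2. A count of 0 does not show that the genotypes respond alike, since the SE of the difference was also large for many inducible genes. Over the 9139 genes called in WT, the median change in the called direction was 0.80 ± 0.03 (SD, n = 6) in KO and 0.84 ± 0.03 (SD, n = 3) in WT, and over the 6433 genes called in KO it was 1.06 ± 0.05 and 1.06 ± 0.04. Each set was called in libraries of 1 genotype, which favours that genotype, so these sizes are given with no test.

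**Figure D5:**
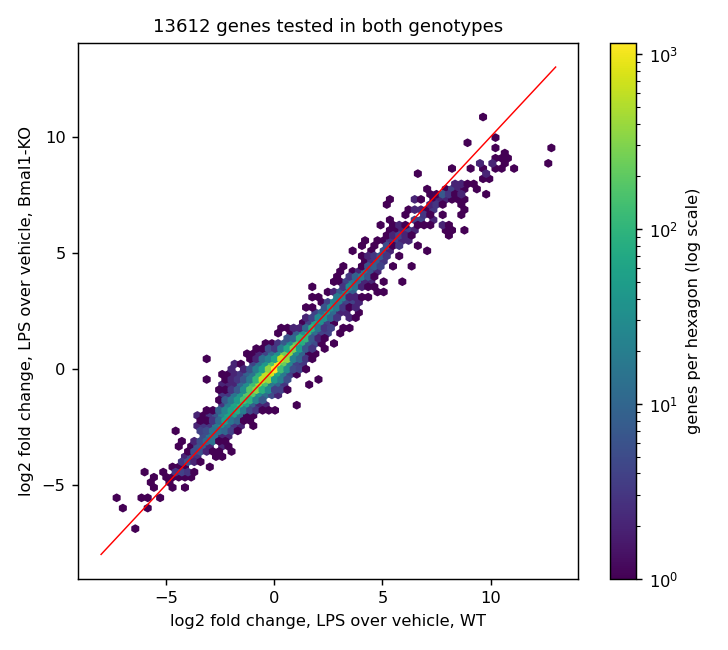
Log2 fold change under LPS in Bmal1-KO BMDMs (y axis) against that in WT BMDMs (x axis) for 13612 genes tested in both, as the number of genes per hexagon (log color scale), with the line of equal change in red. The points lie along the line (Pearson r of 0.98 across genes).

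Among the 10 protein-coding genes with the largest rises, most fitted changes were smaller in KO than in WT. The difference on the log2 scale was -1.48 ± 0.86 for Il1b and -1.36 ± 0.86 for Ccl5, both highest in vehicle replicate 2 among the KO vehicle libraries. Cxcl11 went the other way, with a larger change in KO (10.85 on the log2 scale, against 9.51 in WT, with a difference of 1.56 ± 0.86). So did Tmem132e (9.61 against 8.92, with a difference of 0.90 ± 0.56). Both had 0 counts in all KO vehicle libraries, so these fitted values depend on the prior count. For Nos2 the log2 fold change was 9.43 in KO and 12.80 in WT, and the difference was -3.34 ± 1.56. For Il12b the values were 8.97 and 12.64, with a difference of -3.66 ± 1.63. For Acod1 they were 9.01 and 10.82, with a difference of -1.80 ± 0.92. None of these differences was called (edgeR adjusted p = 1.0 for each). For the last 3 genes vehicle replicate 2 held the highest vehicle value: without that library the KO values were 11.75 for Nos2, 11.36 for Il12b and 10.31 for Acod1. Tnf, with 21.7 CPM or more in every vehicle library, had log2 fold changes of 5.98 in KO and 6.18 in WT.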

How the data were processed

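Poly-A RNA of BMDMs was sequenced in paired-end libraries. The deposited values are raw counts per gene for 54532 genes, which the authors made with fastp, HISAT2 2.0.5 (mm10) and featureCounts 1.5.0-p3, per the labels. The strand setting is not given in the sources used here. Groups and replicate numbers came from the labels. The members and gene lists were chosen with earlier results of these data known.

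Genes that passed filterByExpr were tested with the quasi-likelihood test of edgeR 4.0.16 (R 4.3.3) with TMM scaling, on the 12 KO libraries, the 6 WT libraries, and all 18 for the interaction, with a Benjamini-Hochberg threshold of 0.05. CPM are TMM-scaled, with a prior count of 2 on the log2 scale. Scripts were tested on simulated data with 200 changed genes. For changes of 1 on the log2 scale, the KO fit recovered 57% with 8.06% false calls, and the WT fit 76.5% with 10.53%. Both shares of false calls are above the threshold of 0.05. For changes of 2, each fit recovered 92.5%, with 4.15% (KO) and 7.96% (WT) false calls. Alternatives used DESeq2 1.42.0, limma 3.58.1 (voom), other scalings, no filter, a replicate block and left-out libraries. Same-numbered vehicle and LPS libraries deviated together (correlations of 0.30 to 0.83, against a median of 0.175 and at most 0.415 for other pairs). The numbers were therefore taken to pair the samples in the replicate block and in the counts of pairs. The main fits left this pairing out, and SE and adjusted p are from them unless another fit is named.

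Named genes were the 10 largest rises and falls among called protein-coding genes (mean log2 CPM no lower than 1, all 6 pairs in 1 direction), up to 2 raised and 2 lowered members of each list, and a set of genes of interest. Other named genes were picked after their values were seen. Of 96 named genes, 40 overlap another annotated gene. Some genes are not reported here.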

Additional observations from a re-analysis of the deposited data

Results flagged for a closer look

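Within each group of 6 libraries, the gap of a library to the nearest other library was divided by the group's range, both in log2 CPM. The library was marked where this ratio was above Dixon's 95% critical value for 6 values. The values below are given in CPM, on which gaps at the high end look larger. Of 188 groups tested, 58 held such a library, where chance marks about 1 in 20, and 50 of the 58 were replicate 6.

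In vehicle replicate 6 the values were, in CPM, Cd28 at 14.7, Irak3 at 11.2, Irak1 at 58.4, Nfkb2 at 76.3, Nfkbiz at 4.96, Cebpa at 825, Zfp36l2 at 139, Pfkfb3 at 29.3, Hif1a at 30.9, Pdk1 at 31.8, Dld at 52.6, Suclg2 at 10.1, Hsd17b7 at 4.64, Mcm7 at 75.3, Ccnd1 at 18.4, Tap1 at 57.2, Nlrc5 at 13.3, H2-Ab1 at 346, Ctsz at 3069, Mitf at 50.5, Tfeb at 164, Adgre1 at 350, Nlrp3 at 12.4, Arntl at 3.01 and Tlr4 at 25.7. In LPS replicate 6 they were, in CPM, Nos2 at 179, Ccl5 at 8233, Saa3 at 21620, Il12b at 118, Irak3 at 191, Cd14 at 3545, Irak1 at 49.6, Nfkbiz at 123, Gbp5 at 572, Batf at 171, Zfp36l2 at 40.5, Hif1a at 129, Dld at 110, Hsd17b7 at 17.3, Ccnd2 at 56, Nlrc5 at 186, H2-Ab1 at 588, Ctsz at 4925, Tfeb at 44.6, Adgre1 at 1008, Nlrp3 at 260, Slc7a11 at 827, Arntl at 2.18, Csf1r at 1329 and Mki67 at 98.2.

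In vehicle replicate 2 the high values were, in CPM, Cxcl9 at 0.57, Acod1 at 46.8, Il12b at 4.04 and Serpina3f at 0.175. Nos2 and Il1b were also highest in this library among the vehicle libraries, but were not marked on the log2 scale. In LPS replicate 2, Il6 was high at 587 CPM and Il10 low at 14.1 CPM. In LPS replicate 3, Socs3 was low at 291 CPM. In vehicle replicate 4, Ifnb1 was at 0.0916 CPM, from 3 counts, while the other 5 vehicle libraries were at 0.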

How the results depend on the processing

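The 6433 genes called in KO became 9774 with the replicate block, 10569 with the replicate block and no filter, 10023 with the replicate block without replicate 6 (added after seeing the data), 9765 with voom and quality weights and 2066 when tested against a log2 change of 1. Leaving out each replicate gave 5429 to 9612 calls, the highest without replicate 6, and leaving out single libraries 6016 to 7534. The 9139 calls in WT became 5644 with all 36 libraries in the fit and 2741 against a log2 change of 1, and 8357 to 9070 when single libraries were left out. The interaction had 0 calls under every alternative run, except 50 with the replicate block and no filter. The median size of the change over replicates moved from 1.09 to 0.74 on genes called with the block and to 1.67 on genes changed by at least 1. The 291 called list genes became 185 against a log2 change of 1. ISRE letters, in 5.85% of promoters of raised genes, were in 4.81% with block calls and 8.48% for changes of at least 1. The causes were not tested. Of 2753 alternatives for 95 named genes, 2590 kept call and direction, 140 (in 20 genes) lost the call, 23 gained it and 0 reversed. Genes near 0 CPM in vehicle are limited by depth, since few counts set their folds.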

Other observations

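Among the 24 genes under 1 CPM in every vehicle library and at or above 10 CPM in every LPS library were also Ifi208 and Shisa3. The reverse pattern, at or above 10 CPM in every vehicle library and under 1 CPM in every LPS library, was found for 2 genes, Slco2b1 and Nat8l. In 21 genes at or above 10 CPM in every vehicle library, the highest LPS value was at most an eighth of the lowest vehicle value, among them Cxcr4, Cnr2 and Pparg.

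By annotated class, 22.8% of 12148 protein-coding genes rose and 26.0% fell. Of 215 lincRNA genes 18.1% rose and 33.0% fell, and of 693 pseudogenes 18.2% rose and 6.2% fell. Without a known strand setting, reads of a gene and an antisense partner cannot be told apart, and pseudogene reads may come from their parent genes.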
